A study of Mus musculus with 6 samples.

Results

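Wnt proteins are secreted, lipid-modified ligands that bind Frizzled receptors, which have several membrane-spanning segments, together with the co-receptors Lrp5 and Lrp6. In the canonical branch this stops the destruction of beta-catenin, which then enters the nucleus and works with factors of the TCF and LEF family, while other branches act on cell polarity and calcium. Secreted proteins of the Sfrp family and Wif1 bind Wnts directly, and Dkk proteins act at the co-receptors. In the lung, Wnt2 and Wnt2b of the mesenchyme are needed for the organ to be specified, Wnt7b comes from the airway epithelium, and Wnt5a acts in the shaping of distal airspaces. Carm1 encodes an arginine methyltransferase that serves as a coactivator of nuclear receptors, and in cultured cells also of beta-catenin.

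The members were all probe sets whose single gene symbol on the array's annotation was a numbered Wnt, Fzd, Sfrp or Dkk gene, or Lrp5, Lrp6, Wif1, Nkd1, Nkd2 or Lef1. They were 87 of the 45101 probe sets on the array and stood for 43 genes. No probe set named Tcf7 alone, so that gene was not analysed here. They comprised 19 Wnt ligands, 12 receptors and co-receptors, 9 secreted inhibitors and 3 intracellular genes. The series compared whole lung RNA of Carm1 knockout mice with that of wild-type mice on 6 Affymetrix Mouse Genome 430 2.0 arrays, 3 per genotype. The knockout lungs were labelled as embryonic day 18.5. The study's design text gives the same day for the wild types, but their sample labels say neonatal, so genotype and age cannot be told apart from the labels. The labels do not name the mouse strain or the kind of knockout allele, and they do not give how many fetuses or litters the lungs stand for, so a p-value here covers the spread between these 6 arrays, which may be technical. A probe set is a group of short probes against 1 transcript whose brightness is summarised as 1 signal, and signals of different probe sets are not comparable in level.

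The labels were checked by the targeted gene first. The Carm1 probe set had signals of 395, 374 and 511 in the knockout lungs, against 814, 678 and 865 in the wild-type lungs. The groups did not overlap, and the knockout signal was lower by 46.0% (log2 −0.89, SE 0.16, limma adjusted p = 0.105). The position of the probes against the deleted part was not used here, so this checks the labels in part. The tissue label was checked by 7 lung epithelium markers, whose summed signal was 100652 to 114635 in the knockouts and 95470 to 123020 in the wild types. The surfactant gene Sftpc alone gave 48245 to 54636 of these sums in the knockouts and 45812 to 57628 in the wild types. Epcam was higher in the knockouts without overlap (log2 0.32, limma unadjusted p = 0.023), and the other markers overlapped. Some transcripts of cartilage, muscle and heart were far higher on single knockout arrays than on the others. The cartilage collagen Col2a1 had a signal of 4537 in knockout replicate 3, against 14.9 to 187 on the other 5 arrays. The embryonic muscle myosin Myh3 was at 1645 in knockout replicate 3 and between 5.33 and 157 on the other arrays. The atrial peptide gene Nppa was at 38.8, 4654 and 220.3 in the knockouts, against 9.81, 3.83 and 2.00 in the wild types. Another heart marker, Myh7, was also higher without overlap, at 1326, 1548 and 1334 in the knockouts, against 1135, 1167 and 1123 in the wild types. The other heart markers overlapped. Bacterial control RNA was present on wild type replicates 1 and 3 (median signals 609 and 379) and on none of the other 4 arrays (4.29 to 11.4), so wild type replicate 2 is the 1 wild-type array that shared this with the knockouts.

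Of the 87 member probe sets, 58 lay above the filter on low values, a mean signal of 59.7 over all arrays, and they stood for 30 genes. In the fit over all 27022 probe sets, 0 of the 58 passed an adjusted p of 0.05, where 8 of all probe sets did (0.0296%). The smallest adjusted p among them was 0.184, for Nkd1. At an unadjusted p under 0.05 there were 10 of 58 (17.2%), against 13.6% of all probe sets tested. Of these, 3 were higher (5.17%, against 7.32% of all) and 7 lower (12.1%, against 6.31% of all), and 4 of the 7 lower ones were probe sets of Nkd1, which share a gene and are not independent. Of the 58, 5 had a mean signal below the filter in 1 genotype and were tested through the other, namely the wild types for Sfrp1 1416594_at, Wnt5b 1439373_x_at, Dkk2 and Nkd2 1457600_x_at and the knockouts for Fzd10. The first 2 of these are among the 3 higher ones, so these 2 passed the filter only through their knockout signals. The groups did not overlap in 15 of 58 member probe sets, 6 higher and 9 lower, where they did not overlap in 20% of all probe sets (10.7% higher and 9.36% lower). Both criteria together were met by 2 higher and 7 lower member probe sets, against 6.25% and 5.5% of all. With 1 probe set per gene, 14 of the 30 genes were higher and 16 lower, and the median log2 difference was −0.0046, against 0.029 for 12947 genes. The values of the members as a set were thus close to those of the array as a whole. In whole lung RNA, fewer cells of a type and less RNA per cell cannot be told apart.

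**Figure D1:**
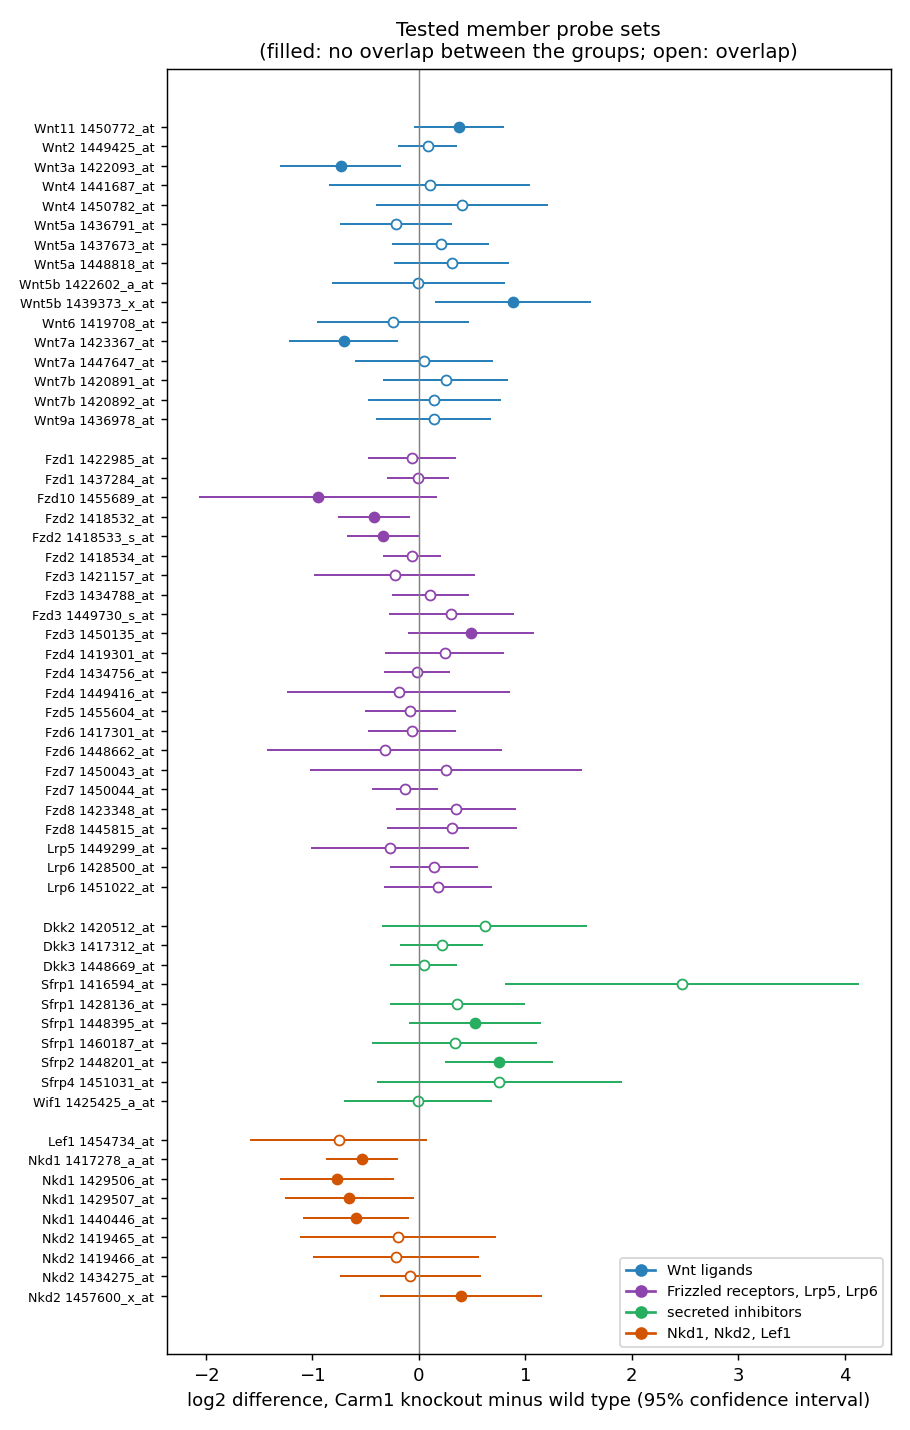
The log2 difference, Carm1 knockout minus wild type, is plotted for each of the 58 tested member probe sets with its 95% confidence interval, grouped by role from ligands to intracellular genes. Most intervals include 0, and the 4 probe sets of Nkd1 lie on the negative side with filled points, which mark groups that did not overlap.

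Most Wnt ligands that could be tested had overlapping signals in both genotypes. Wnt2, the mesenchymal Wnt, had signals of 2188, 1875 and 2023 in the knockouts, against 2083, 1677 and 2003 in the wild types. The log2 difference was 0.08 with a 95% interval of −0.18 to 0.35. Wnt7b, the epithelial Wnt, had 2 tested probe sets with log2 differences of 0.25 and 0.14, each with overlapping groups. Wnt5a, a ligand of the non-canonical branch, had 3, at −0.22, 0.21 and 0.31, so its probe sets did not share a sign. Wnt4, which acts in kidney and gonad as well as lung, had signals of 219, 530.3 and 525 in the knockouts, against 292, 227 and 398 in the wild types, on its brighter probe set, where knockout replicate 1 was low and the other 2 were above all wild types.

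The ligands that separated the genotypes were Wnt3a, Wnt7a, Wnt5b and Wnt11. Wnt3a, a strong canonical ligand, had signals of 203, 239 and 169 in the knockouts, against 459, 319.7 and 257 in the wild types. The groups did not overlap, with a log2 difference of −0.73 (SE 0.25, limma adjusted p = 0.264) that was −0.51 without wild type replicate 1. Wnt7a, a ligand best known from limb and reproductive tract, had signals of 157, 194 and 124 in the knockouts, against 273, 256 and 234 in the wild types, a log2 difference of −0.71 (SE 0.22, limma adjusted p = 0.237). A second tested probe set of Wnt7a, 1447647_at, differed by 0.05 (95% interval −0.59 to 0.69) with overlapping groups, so the 2 probe sets disagree.

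Wnt5b, a close relative of Wnt5a, showed the same kind of disagreement. On 1439373_x_at, whose name marks probes that may bind other transcripts, the signals were 89.3, 91.6 and 129.7 in the knockouts, against 49.2, 57.9 and 59.1 in the wild types, each below the filter. The log2 value of 0.89 (SE 0.32, limma adjusted p = 0.288) is therefore given as a description. On 1422602_a_at they were 84.8, 59.8 and 133 in the knockouts, against 96.7, 88.4 and 79.6 in the wild types, with overlap and a 95% interval of −0.81 to 0.80. Wnt11, a non-canonical ligand, had signals of 252, 259 and 287 in the knockouts, against 225, 179 and 212 in the wild types, so the groups did not overlap, with a log2 difference of 0.38 (95% interval −0.04 to 0.79). Wnt6 and Wnt9a differed by −0.24 and 0.14 with overlapping groups.

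**Figure D2:**
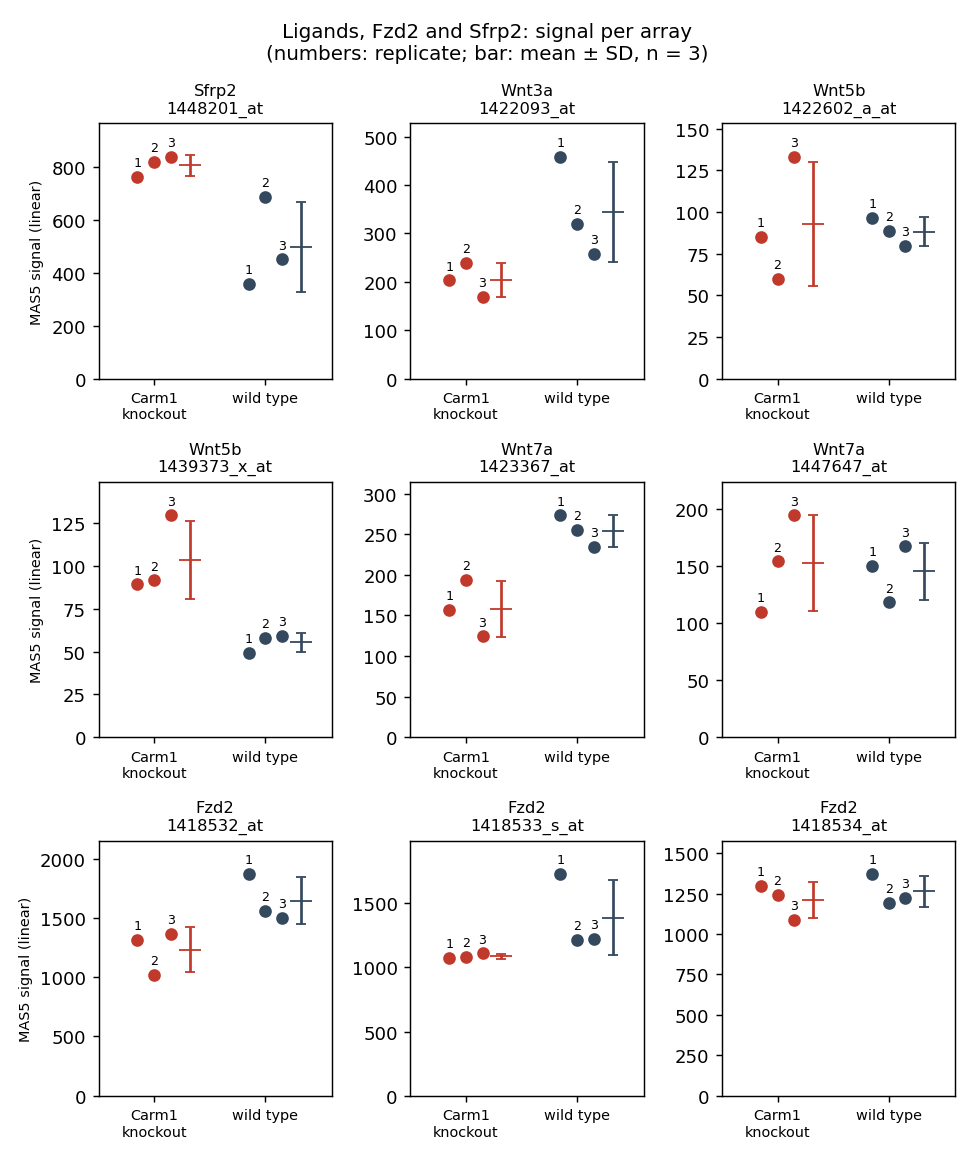
Signals on the linear MAS5 scale are shown for Sfrp2 and for the tested probe sets of Wnt3a, Wnt5b, Wnt7a and Fzd2, with Carm1 knockout arrays on the left and wild-type arrays on the right, replicate numbers at the points, and the mean with its SD as a bar. Wnt5b, Wnt7a and Fzd2 each have at least 1 panel in which the groups overlap beside 1 in which they do not.

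The remaining 9 ligand genes had no probe set above the filter. The highest signal on any array was 81.5 for Wnt10a, 66.2 for Wnt2b, 46.7 for Wnt8a, 46.5 for Wnt9b, 45.9 for Wnt1, 42.0 for Wnt8b, 41.2 for Wnt3, 30.3 for Wnt16 and 18.4 for Wnt10b. No detection calls were used here, so these values do not show whether the genes are expressed. Several Wnt genes are adjacent in the genome, with 0 other protein-coding genes between them in the RefSeq annotation of GRCm38.p6: Wnt3a and Wnt9a on chromosome 11, Wnt9b and Wnt3 on chromosome 11, Wnt6 and Wnt10a on chromosome 1, and Wnt10b and Wnt1 on chromosome 15. In 1 of the 4 pairs both genes were tested, and there Wnt3a was lower without overlap while the log2 difference of Wnt9a was 0.14 (95% interval −0.39 to 0.67).

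The Frizzled receptors had closely matched signals in most cases. Fzd1 had signals of 1929, 2083 and 2612 in the knockouts, against 2115, 2219 and 2263 in the wild types, and a log2 difference of −0.0057 (95% interval −0.29 to 0.28). Fzd7 had 1369.7, 1319.6 and 1387 in the knockouts, against 1225, 1654 and 1619.5 in the wild types. Fzd4, a receptor of endothelium that also binds norrin, had 1029, 1028 and 909 in the knockouts, against 884, 959 and 1168 in the wild types, with overlap. Fzd5 and Fzd6 gave log2 differences of −0.08 and −0.07 on their brightest probe sets, Fzd3 gave 0.11 and Fzd8 gave 0.35 (0.08 without wild type replicate 1), all with overlapping groups. On another of the 4 tested probe sets of Fzd3, 1450135_at, knockout signals of 149, 208 and 142 lay above wild-type signals of 97.2, 130.4 and 125 (log2 0.49, 95% interval −0.09 to 1.08).

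Fzd2, a receptor of the lung mesenchyme and epithelium that also transmits Wnt5a, was the receptor with an unadjusted p under 0.05. On 1418532_at its signals were 1315, 1017 and 1364 in the knockouts, against 1871, 1562 and 1501 in the wild types (log2 −0.42, SE 0.14, limma adjusted p = 0.268). On 1418533_s_at they were 1070.5, 1079.6 and 1108 in the knockouts, against 1726, 1215 and 1220.4 in the wild types, again without overlap. The log2 difference there was −0.33 (limma unadjusted p = 0.0505), and it was −0.17 without wild type replicate 1. On 1418534_at the signals were 1297, 1243 and 1086 in the knockouts, against 1371, 1193 and 1225 in the wild types, with overlap and a difference of −0.07. The groups of Fzd2 thus did not overlap on 2 of its 3 probe sets.

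Fzd10 was dim, with signals of 22.6, 78.0 and 67.6 in the knockouts, against 88.6, 99.7 and 97.2 in the wild types (log2 −0.95, 95% interval −2.06 to 0.16). Knockout replicate 1 was far below the filter, and without it the difference was −0.39. Fzd9 had no tested probe set and a highest signal of 156. The co-receptor Lrp6 had signals of 1279, 1104 and 1413 in the knockouts, against 865, 1331 and 1281 in the wild types, on its brighter probe set. The log2 difference was 0.15 there and 0.18 on the other probe set, and that of Lrp5, the second co-receptor, was −0.27 (SE 0.32).

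Of 10 tested probe sets of secreted inhibitors, 9 had a log2 difference above 0. They stood for 6 genes, 5 of them above 0 with 1 probe set per gene, where 7070 of 12947 genes were, and 4 of the 10 probe sets belonged to Sfrp1 and so shared a transcript. Of the probe sets above 0, those of Dkk2 and Sfrp1 1416594_at passed the filter only through their knockout signals, which favours a difference above 0. Sfrp2, a Wnt-binding protein made by mesenchymal cells, had signals of 761, 819 and 837 in the knockouts, against 356, 684 and 449.7 in the wild types. All knockouts lay above all wild types (log2 0.75, SE 0.22, limma adjusted p = 0.211). Wild type replicate 2 was closest to the knockouts, and with it as the only wild-type array the difference was 0.23. Of 8 mesenchymal markers, 1 was higher and 1 lower at an unadjusted p under 0.05, both without overlap: the collagen Col1a1 (log2 0.54) and the receptor Pdgfra (log2 −0.26). The summed signal of the 8 was 48444 to 50758 in the knockouts and 48929 to 51604 in the wild types. Tcf21 alone gave 19653 to 22290 of these sums in the knockouts and 21509 to 26656 in the wild types. The part of mesenchymal cells in the Sfrp2 values was not tested.

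Sfrp1, another Wnt-binding protein of the lung mesenchyme, had 4 tested probe sets, with log2 differences from 0.34 to 2.47. On 1416594_at its signals were 96.9, 315 and 150.3 in the knockouts, against 15.4, 18.0 and 97.0 in the wild types. The groups overlapped, since wild type replicate 3 matched knockout replicate 1, and the other 2 wild types lay far below the filter. The log2 value of 2.47 (95% interval 0.82 to 4.12, limma adjusted p = 0.215) rests on those dim signals and is given as a description. The other 3 tested probe sets gave 0.36, 0.53 and 0.34. Knockout replicate 2, the array with the high Nppa signal, was highest on all 4 probe sets, and without it the differences were 2.01, 0.16, 0.37 and 0.14, while the part of heart tissue was not tested. On 1448395_at the groups did not overlap, with 116, 181 and 143 in the knockouts, against 89.0, 113 and 99.7 in the wild types.

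Dkk3, a divergent member of the Dkk family, had log2 differences of 0.21 and 0.04 on its 2 probe sets, with overlap. Dkk2 had signals of 64.5, 66.0 and 130.1 in the knockouts, against 67.7, 37.8 and 59.9 in the wild types, and Wif1 had 147, 149 and 302 in the knockouts, against 222, 175 and 173 in the wild types. Both were highest in knockout replicate 3, the array with the high Col2a1 and Myh3 signals, and the part of cartilage and muscle in these values was not tested. Sfrp4 had a log2 difference of 0.76 with a 95% interval of −0.39 to 1.90, wild type replicate 3 being low at 29.9. Without that array it was 0.16, and on the arrays without bacterial control RNA it was −0.06. Dkk1, Dkk4 and Sfrp5 had no tested probe set, with highest signals of 54.1, 45.7 and 135.

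Nkd1, among the intracellular members, had lower signals in the knockouts on all 4 of its probe sets. It encodes a cytoplasmic protein that binds Dishevelled and dampens Wnt signalling, and it is itself switched on by canonical Wnt signalling in several tissues. On probe set 1417278_a_at the signals were 684, 816 and 794 in the knockout lungs, against 1329.5, 1012 and 1004 in the wild-type lungs. The groups did not overlap, the means being 764 ± 70.9 in the knockouts and 1115 ± 186 in the wild types (SD, n = 3 each). The log2 difference was −0.54 (SE 0.14, 95% interval −0.86 to −0.21), which did not pass over all probe sets (limma adjusted p = 0.184).

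Probe set 1429506_at of Nkd1 had signals of 603, 1241 and 931 in the knockouts, against 1653, 1345 and 1564 in the wild types. Here knockout replicate 1 was far below the other 2 knockouts, and the groups again did not overlap (log2 −0.77, SE 0.23, adjusted p = 0.22 by limma). On 1429507_at the signals were 161, 289 and 299.9 in the knockouts, against 391, 315 and 442 in the wild types, a log2 difference of −0.65 (SE 0.26). On 1440446_at they were 229, 403 and 319.7 in the knockouts, against 501, 416 and 483 in the wild types, a log2 difference of −0.59 (SE 0.22). Knockout replicate 1 was the lowest array on all 4 probe sets, and knockout replicate 2 came close to wild type replicate 2 on the second and the last. Without knockout replicate 1 the 4 differences were −0.46, −0.50, −0.36 and −0.37, and with wild type replicate 2 as the only wild-type array they were −0.41, −0.60, −0.38 and −0.43. They were −0.59, −1.02, −0.78 and −0.78 without knockout replicate 2, and −0.57, −0.81, −0.81 and −0.61 without knockout replicate 3. Leaving out either array gives more weight to knockout replicate 1. The part of heart, cartilage and muscle in the Nkd1 values was not tested.

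**Figure D3:**
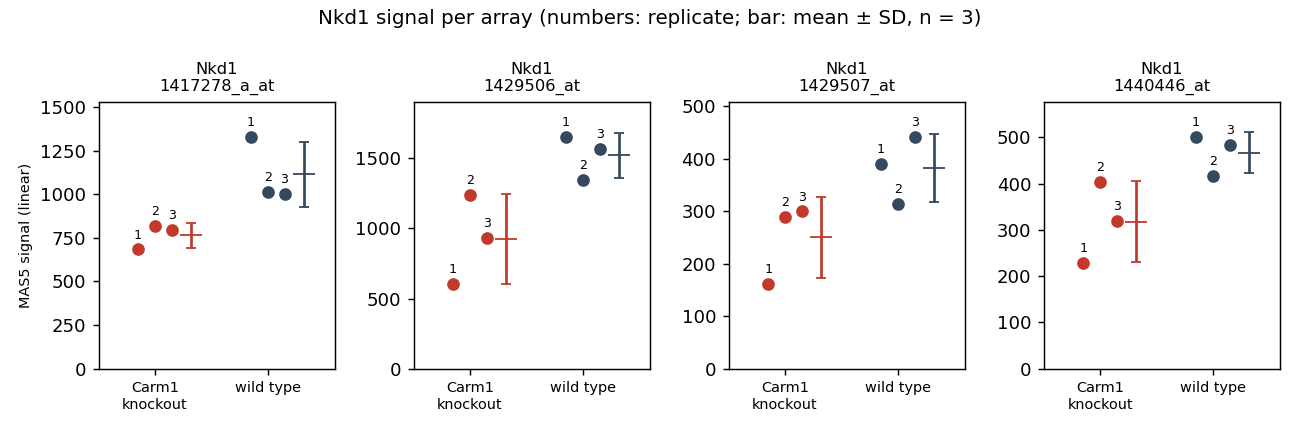
Nkd1 signal on the linear MAS5 scale is shown for 4 probe sets, with the 3 Carm1 knockout arrays on the left and the 3 wild-type arrays on the right of each panel, replicate numbers at the points, and the mean with its SD as a bar. In every panel the highest knockout point lies below the lowest wild-type point, by a small margin where knockout replicate 2 meets wild type replicate 2.

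Markers of several cell types also differed over these arrays, given here as sums of 1 probe set per gene, in which bright probe sets weigh most. Of 5 alveolar type I cell markers, 3 had an unadjusted p under 0.05 and were lower, and their summed signal was 36472 to 49797 in the knockouts, against 52956 to 79670 in the wild types. Of 5 endothelial markers 4 were lower at that p, with sums of 5665 to 6711 in the knockouts and 7903 to 9282 in the wild types. Of 4 mesothelial markers 2 were lower, with sums of 3784 to 5552 in the knockouts and 6688 to 7850 in the wild types. All 3 proliferation markers were higher, with sums of 6574 to 10400 in the knockouts and 3657 to 6240 in the wild types. Of 5 smooth muscle markers 2 were higher, Cnn1 (log2 1.26) and Actg2 (0.40), with sums of 11897 to 15056 in the knockouts and 10905 to 12754 in the wild types. None of these markers was listed at 0. The part of these cell types in the Nkd1 values was not tested.

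The other intracellular members had no probe set at an unadjusted p under 0.05. Nkd2, the paralog of Nkd1, had 4 tested probe sets with log2 differences of −0.22 to 0.40. The last of these, 1457600_x_at, had knockout signals of 68.2, 92.9 and 71.3 above wild-type signals of 63.6, 60.5 and 51.3 (adjusted p = 0.642 by limma). Lef1, a DNA-binding partner of beta-catenin and itself a common Wnt target, had signals of 69.0, 132 and 84.7 in the knockouts, against 235, 137 and 115 in the wild types. Its groups overlapped, wild type replicate 1 was far above the other arrays, and the log2 difference of −0.75 (95% interval −1.57 to 0.07) became −0.45 without that array. Lef1 is also expressed in T cells. Of 9 markers of T cells and thymus 8 lay below the filter, and the tested one, Cd8a, was lower at an unadjusted p under 0.05 (log2 −0.95, adjusted p = 0.36 by limma) with overlap. The 9 had a summed signal of 189 to 227 in the knockouts and 217 to 425 in the wild types, and the part of T cells in the Lef1 values was not tested.

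Promoters of the members that separated the genotypes at an unadjusted p under 0.05 were searched for the letters CTTTGAT, the core bound by TCF and LEF factors, on both strands in the 250 bases before the start site. RefSeq sequences of GRCm38.p6 were at hand for 29 of the 43 member genes and for 5 of these 6 genes, all but Fzd2. The letters occurred in 2 of 35 member promoters (5.71%), against 1053 of 32851 promoters of all genes (3.21%). The 2 belonged to 1 of 3 start sites of Wnt5b and 1 of 2 of Wnt11. Wnt5b is among the 6 genes only through 1439373_x_at, which passed the filter through its knockout signals, while its other tested probe set overlapped. The sequences of Nkd1 and Sfrp2, which differed in opposite directions, and of the Wnt5b start site with the match are printed 5′ to 3′ in lower case, and capitals mark the match. The Nkd1 window is at chr8:88527383-88527632 on the plus strand, the Sfrp2 window at chr3:83766071-83766320 on the plus strand and the Wnt5b window at chr6:119449387-119449636 on the minus strand.
Nkd1: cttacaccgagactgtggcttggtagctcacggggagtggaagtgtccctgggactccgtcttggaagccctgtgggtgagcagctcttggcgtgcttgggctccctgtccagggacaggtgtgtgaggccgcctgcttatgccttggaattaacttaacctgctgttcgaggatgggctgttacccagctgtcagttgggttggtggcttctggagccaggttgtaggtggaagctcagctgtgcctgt
Sfrp2: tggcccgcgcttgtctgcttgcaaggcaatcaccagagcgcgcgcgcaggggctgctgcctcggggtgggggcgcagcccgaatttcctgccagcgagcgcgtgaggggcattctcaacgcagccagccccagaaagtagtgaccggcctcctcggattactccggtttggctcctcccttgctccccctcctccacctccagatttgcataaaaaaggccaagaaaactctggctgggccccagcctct
Wnt5b: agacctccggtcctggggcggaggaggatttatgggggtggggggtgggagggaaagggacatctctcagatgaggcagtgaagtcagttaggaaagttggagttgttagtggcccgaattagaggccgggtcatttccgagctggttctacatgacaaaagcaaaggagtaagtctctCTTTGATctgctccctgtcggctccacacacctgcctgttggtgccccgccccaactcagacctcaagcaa
The Wnt5b match begins 71 bases before the start site. A match is a description of letters and not of a bound site, and the lack of a match in the Nkd1 and Sfrp2 windows says nothing of the factors' binding elsewhere in these genes.

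Other genes of the pathway were described from 8 lists with 101 genes, of which 86 were tested. None passed the adjusted p in limma, and at an unadjusted p under 0.05 there were 5 higher and 10 lower (5.81% and 11.6%, against 9.14% and 7.36% of 12947 genes). These and the counts by list take 1 probe set per gene. Over all 185 tested probe sets of these genes there were 11 higher and 16 lower, where 7.32% and 6.31% of all tested probe sets were. The median log2 difference of the 86 tested genes was −0.0040. The 2 genes of smallest p were a ligand and its receptor. Rspo2, which keeps Frizzled receptors at the membrane, had 261, 272 and 260.4 in the knockouts, against 111, 115 and 112 in the wild types, and Lgr4 had 621, 548 and 660.3 in the knockouts, against 292, 338 and 318 in the wild types (limma adjusted p = 0.0909 for each). The other 6 of the 8 tested R-spondin and receptor genes had a larger unadjusted p, above 0.05.

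Further modulators of ligand reception went both ways, 3 higher and 1 lower of 11 tested. Cthrc1, a secreted protein that binds Wnt and Frizzled complexes, had 956, 1324 and 1785 in the knockouts, against 544, 737 and 578 in the wild types (log2 1.09, SE 0.22, limma adjusted p = 0.129). Ror1 and Ror2, tyrosine kinase receptors for Wnt5a, differed in opposite directions. Ror1 had 496, 561 and 568 in the knockouts, against 674, 727 and 679 in the wild types (log2 −0.36). A second probe set differed by −0.97, also without overlap, but was dim, with 54.8, 64.5 and 50.5 in the knockouts. The mean of these lay below the filter, so that probe set passed it only through its wild-type signals, which favours a difference below 0. Ror2 had 272, 386 and 332 in the knockouts, against 198, 248 and 271 in the wild types (log2 0.46). The heparan sulfate proteoglycan Gpc3 differed by 0.32, with 3566, 3249 and 3731 in the knockouts, against 2510, 2986 and 2946 in the wild types.

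Inside the cell, Ctnnb1, the beta-catenin gene, had a log2 difference of −0.01 with overlapping groups. Of 18 cytoplasmic canonical genes 1 was lower at an unadjusted p under 0.05, the kinase Csnk1e (log2 −0.38), of which a second probe set differed by 0.12 with overlap. A further probe set of the kinase Csnk1a1 was also lower (−0.46). Of 13 nuclear genes 3 were lower and 0 higher, namely the factor Tcf7l2 (−0.35), the corepressor Tle4 (−0.30) and the acetyltransferase Ep300 (−0.26). Ctnnbip1, an inhibitor of beta-catenin's binding to TCF, was higher without overlap (0.24). Over all 27 probe sets of the nuclear genes 2 were higher and 4 lower, where 7.32% and 6.31% of all tested probe sets were. Further probe sets of the acetyltransferase Crebbp (0.35, without overlap) and of Bcl9 (0.64), which ties beta-catenin to its coactivators, were higher. A further probe set of the corepressor Tle1 was lower (−0.38). Another probe set of Tcf7l2 had the opposite sign, 0.78, without overlap, but was dim, with 36.8, 50.7 and 79.6 in the wild types. The mean log2 of these lay below the filter, so that probe set passed it only through its knockout signals, which favours a difference above 0. Of 9 planar cell polarity genes Prickle1 was lower, with 1485, 1349 and 1462 in the knockouts, against 1835, 2022 and 1813 in the wild types (log2 −0.40, SE 0.10, limma adjusted p = 0.16). The groups also did not overlap for Celsr2 (0.38), Daam2 (−0.28) and Vangl1 (−0.25), and another probe set of Daam2 separated the genotypes in the other direction (0.45). Of 10 genes of the calcium branch the kinase Camk2d was lower (−0.34). A further probe set of Camk2d differed by 0.93 the other way, and a second probe set of Nfatc1 was higher (0.84). Both were dim in the wild types, at 45.7, 69.7 and 49.4 for Camk2d and 47.5, 47.3 and 51.5 for Nfatc1. These means lay below the filter, so both probe sets passed it only through their knockout signals, which favours a difference above 0. Plcb1, a phospholipase, was higher without overlap (0.22), and the 4 tested secretion and processing genes gave none at that p. Of those, Notum, an enzyme that removes the lipid from Wnts, had no overlap at −0.27.

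Genes that canonical Wnt signalling can switch on were divided in direction, 7 higher and 10 lower. With 1 probe set per gene, 3 of these 17 tested targets were lower and 0 higher at an unadjusted p under 0.05, and Nkd1 was 1 of the 3. Over all 34 probe sets of the targets 2 were higher and 6 lower, where 7.32% and 6.31% of all tested probe sets were. Of the 6 lower ones, 4 were those of Nkd1. The 2 higher ones were the cyclin gene Ccnd1, with 921, 1119 and 1160 in the knockouts, against 911, 734 and 836 in the wild types on 1 of its 3 probe sets (log2 0.36), and Id2 (log2 0.39, with overlap). The other lower targets were Mycn, with 363, 348 and 369 in the knockouts, against 518, 448 and 559.9 in the wild types, and the growth factor gene Fgf18, with 167, 212 and 158 in the knockouts, against 336, 241 and 228 in the wild types. The other 2 tested probe sets of Mycn differed by −0.09 and 0.59 with overlap. Ascl2 was higher without overlap at 1.08, on a dim probe set where wild type replicate 1 was at 18.3. The mean log2 signal of its wild types lay below the filter, so the probe set passed only through its knockout signals, which favours a difference above 0. Axin2, the target most often used as a readout of the canonical branch and named here after its values were seen, had 619.5, 756 and 649 in the knockouts, against 738, 785 and 650.0 in the wild types (log2 −0.10, SE 0.14, limma adjusted p = 0.783). The median of the target list was −0.04.

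**Figure D4:**
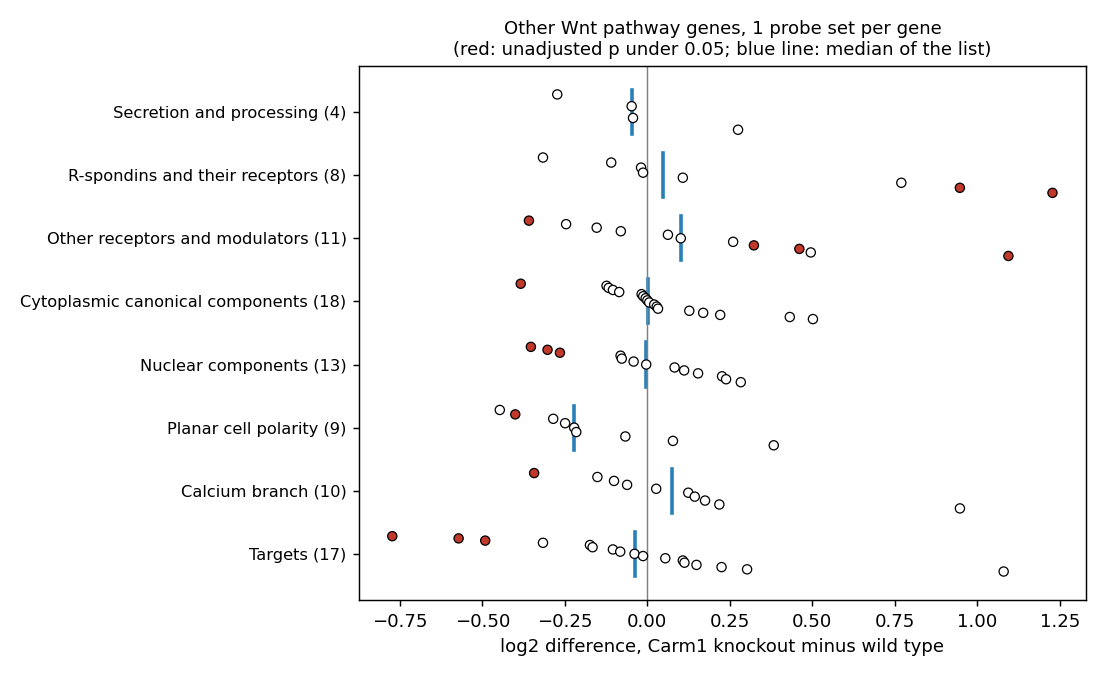
Each point is 1 gene of a Wnt pathway list outside or partly overlapping the members, placed by its log2 difference, Carm1 knockout minus wild type, with red points at an unadjusted p under 0.05 and a blue line at the median of each list, the number of genes in brackets. The medians lie between −0.22 for planar cell polarity and 0.10 for other receptors and modulators, and the rightmost point is Rspo2.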

How the data were processed

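Whole lung RNA was measured on 6 arrays. The deposited intensity values are linear MAS5 signals per the submitters' processing notes, with no MAS5 version given. In the deposited values the mean after trimming 2% of probe sets at each end was the same on all arrays, and replicates were not pooled. Precision is limited by the number of arrays. Of the probe sets, 34958 had 1 symbol in the platform annotation, 932 had several and 9211 had none, and symbols were updated through the gene ID in RefSeq. After 64 control probe sets were left out, those with a mean log2 signal above the 40th percentile were tested on the log2 scale, with no pseudocount, by limma 3.58.1 in R 4.3.3 (lmFit, eBayes with an intensity trend, two-sided, knockout minus wild type), with Benjamini-Hochberg adjustment over all of them. Groups came from the sample descriptions. An exact permutation test of 3 against 3 arrays cannot give a p under 0.1, so it was not used. Where a gene is counted once, its probe set of highest mean was taken. Carm1, which is not a member, was named as the check of the labels. Of the members, the tested probe sets whose groups did not overlap at an unadjusted p under 0.05 were named. So were the 3 genes of highest signal per role, every member gene not tested, and per pathway list up to 4 genes of smallest p without overlap. Further members were named after their values were seen. The members and lists were chosen with earlier results of these data known. The fit was tested on simulated data. Alternatives covered the filter, the scaling, a pseudocount of 32, the variance model, covariates and each array left out.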

Additional observations from a re-analysis of the deposited data

How the results depend on the processing

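No member probe set passed the adjusted p in limma in any of the 17 alternatives run, where 10 had an unadjusted p under 0.05 in the fit as reported. The differences of the 9 member probe sets that had such a p and groups without overlap kept their direction in each alternative they were tested in. Groups without overlap keep their direction whichever arrays are left out, and the filter and the variance model do not change a difference. That outcome was therefore largely fixed in advance and is no measure of robustness. Of all 58 tested member probe sets 35 kept their direction in each alternative and 23 did not. Among the 23 were Wnt2 (0.08, and −0.013 without wild type replicate 2), Fzd1 1437284_at (−0.0057, and 0.086 without knockout replicate 1) and Dkk3 1448669_at (0.04, and −0.05 without knockout replicate 2). The count at an unadjusted p under 0.05 was 3 with bacterial control RNA as a term and 3 on the arrays without it (1 wild type, assumed to vary like the knockouts), where 2008 and 2093 of all probe sets had such a p, against 3683 in all. It was 7 to 12 when 1 array was left out, with 2425 to 3473 of all probe sets. The count of all probe sets past the adjusted p was 8, and it was 0 without a trend in eBayes, 40 with robust variance, 4 with sex as a term (an alternative changed after seeing the data, because Ddx3y was not named and Eif2s3y took its place), 2 with bacterial control RNA as a term, 3 on the arrays without it and 0 to 13 when 1 array was left out. The median of the member genes was 0.11 with the filter at the 60th percentile, where fewer genes were tested, and −0.029 to 0.107 when 1 array was left out (0.107 without wild type replicate 3). The labels number the arrays alike in both genotypes. Same-numbered arrays deviated from their group means with correlations of −0.14, −0.38 and −0.0056, which do not show a pairing by number but cannot exclude one. With a replicate block 0 of all probe sets passed the adjusted p, and 10 member probe sets had an unadjusted p under 0.05. Over the 17 alternatives, 2008 to 4565 of all tested probe sets had an unadjusted p under 0.05. The cause of these shifts was not tested.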
